A study of Rattus norvegicus with 62 samples.

Results

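The genes described here are 6 members of the aryl hydrocarbon receptor (AhR) pathway, Ahr, Arnt, Tiparp, Cyp1a1, Cyp1a2 and Cyp1b1, followed over all 14 groups of a rat liver initiation and promotion experiment. They were taken by gene symbol: every probe set (the group of short oligonucleotides that reports 1 transcript on the array) annotated to a single gene with 1 of these symbols was a member. This gave 8 probe sets for the 6 genes, among 20826 probe sets and 14217 genes with a single symbol. Ahr and Tiparp each had a second probe set, that of Ahr at 100 or above on 4 of 62 arrays, and each gene was tested on the probe set with the higher mean signal. In the comparisons between treatments, 6 of the 6 genes passed the filter on low signal at 10w and 5 of the 6 at 5w, where Cyp1a1 was below it.

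AhR is a ligand-activated transcription factor that waits in the cytoplasm bound to chaperones, enters the nucleus when it binds planar aromatic compounds such as dioxins, pairs with ARNT and binds DNA at a short core motif. Its best known targets are the CYP1 monooxygenases, which oxidise many of the compounds that activate the receptor, and TIPARP, an ADP-ribosyltransferase that limits AhR signalling. In liver, CYP1A2 is made constitutively by hepatocytes around the central vein, whereas CYP1A1 is scarce until the receptor is activated. Phenobarbital, the promoter used in this experiment, is known chiefly as an activator of another receptor, CAR.

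Male Crj:CD(SD)IGS rats were given an initiator or its methylcellulose vehicle (MC) for 1 or 2 weeks, were left for 2 weeks, and then drank water with or without 500 ppm phenobarbital (PB) for 6 weeks. A partial hepatectomy 1 week after promotion began gave the 5w liver, and the end of the study gave the 10w liver of the same animal. All 31 animals underwent this surgery, the controls included, so a 10w sample is a liver that had regrown under treatment. The treatments were diethylnitrosamine at 3 mg/kg (DEN3/PB, n = 5) or 30 mg/kg (DEN30/PB, n = 4), thioacetamide at 45 mg/kg (TAA/PB, n = 5), methapyrilene at 100 mg/kg (MP/PB, n = 5), acetaminophen at 1000 mg/kg (APAP/PB, n = 4), vehicle and phenobarbital (MC/PB, n = 4), and vehicle and plain water (MC/water, n = 4). No treatment combined an initiator with plain water, so an initiator can be read only on top of phenobarbital.

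Whole liver was measured on 62 Affymetrix arrays, and a lower signal can come from fewer cells of a type or from less RNA per cell, which cannot be told apart here. The hepatocyte transcripts Alb (39380 to 82820) and Ttr (29940 to 54010) were high on every array, and of the bile duct markers Krt7 was below 100 on every array, Cftr on all but 1 and Krt19 reached 100 on 46 of 62, while Epcam was at 495.1 to 2503. Signals had been scaled alike, with a 2% trimmed mean of 500.23 to 500.27 and a median of 99.34 to 125.7 per array. The arrays fell into 2 sets of 30 and 32 along the largest component of their spread within groups, which held 11.8% of it. The sets are read from these arrays' own values, no label names them, and every group had 2 or 3 arrays in each. Both arrays of an animal always lay in the same set, with the animals numbered 1 and 3 in set 1 and those numbered 2 and 4 in set 2. Because Ahr differed between these sets, its values are given within each of them as well as pooled.

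Promoter sequences are shown for Ahr and Cyp1a2, the members whose levels changed between treatments, and for Tiparp, as an AhR target whose promoter holds the core motif. Each is the 250 bases before the gene's start, printed 5′ to 3′ on the gene's strand from RefSeq, assembly GRCr8, and capitals mark the core motif GCGTG or its reverse complement CACGC.
Ahr promoter: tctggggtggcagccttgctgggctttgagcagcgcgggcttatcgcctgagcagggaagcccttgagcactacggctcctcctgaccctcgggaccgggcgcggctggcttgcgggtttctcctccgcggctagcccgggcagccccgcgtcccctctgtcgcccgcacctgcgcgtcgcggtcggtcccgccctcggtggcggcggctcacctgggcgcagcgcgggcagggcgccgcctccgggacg
Cyp1a2 promoter: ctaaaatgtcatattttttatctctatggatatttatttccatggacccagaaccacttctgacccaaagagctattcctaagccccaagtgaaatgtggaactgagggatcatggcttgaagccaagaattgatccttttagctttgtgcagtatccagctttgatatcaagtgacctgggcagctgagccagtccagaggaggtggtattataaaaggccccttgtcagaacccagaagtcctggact
Tiparp promoter: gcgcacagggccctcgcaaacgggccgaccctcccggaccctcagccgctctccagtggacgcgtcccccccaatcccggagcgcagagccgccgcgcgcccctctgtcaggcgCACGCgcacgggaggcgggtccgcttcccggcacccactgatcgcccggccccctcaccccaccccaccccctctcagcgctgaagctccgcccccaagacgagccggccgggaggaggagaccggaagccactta
The Ahr window is chr6:57998902-57999151 on the minus strand and the Cyp1a2 window is chr8:66978150-66978399 on the minus strand, and neither contained the motif on either strand. The Tiparp window is chr2:152063519-152063768 on the plus strand and contained it 1 time. The corresponding windows of Arnt and Cyp1b1 held 1 and 2 matches, and no Cyp1a1 promoter was used here. Among all 33469 rat promoters of the same length in that table, 25.9% held at least 1 match, and a match is a run of letters and not a shown binding site.

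Ahr, the gene of the receptor itself, was higher in the initiated and promoted livers than in untreated livers at 10w. Averaged over the 5 initiated treatments, its level was 2.48-fold that of MC/water, and all but 1 of the 27 phenobarbital-treated livers lay above all 4 MC/water livers, as they did for 1.65% of genes. The shares of genes given beside such separations follow rules set after the values were seen. The mean signal was 486.9 ± 134.4 in DEN3/PB, 372.5 ± 159.1 in DEN30/PB, 473.9 ± 101.8 in TAA/PB, 590.1 ± 109.4 in MP/PB, 636.9 ± 128.8 in APAP/PB and 370.2 ± 162.0 in MC/PB, against 182.2 ± 20.1 in MC/water (SD, n = 4 or 5).

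The 10w Ahr signals of single livers were 757.4, 497.4, 734.7 and 557.9 in APAP/PB and 747.8, 630.9, 596.6, 475.0 and 500.1 in MP/PB. They were 638.6, 370.9, 493.4, 431.3 and 435.1 in TAA/PB and 635.0, 400.7, 505.0, 306.5 and 587.2 in DEN3/PB. No liver of these 4 treatments or of MC/PB, grouped after the values were seen, overlapped the untreated livers. The share of all genes separated by this grouping was not computed. DEN30/PB gave 458.4, 378.0, 506.2 and 147.4, and MC/PB gave 526.7, 250.3, 491.9 and 212.0, against 161.5, 205.2, 192.2 and 169.8 in MC/water. The lowest of all 62 arrays for Ahr was the fourth DEN30/PB liver. The MC/PB livers formed a high pair and a low pair, the low pair close to MC/water but above all 4 of its livers.

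**Figure D1:**
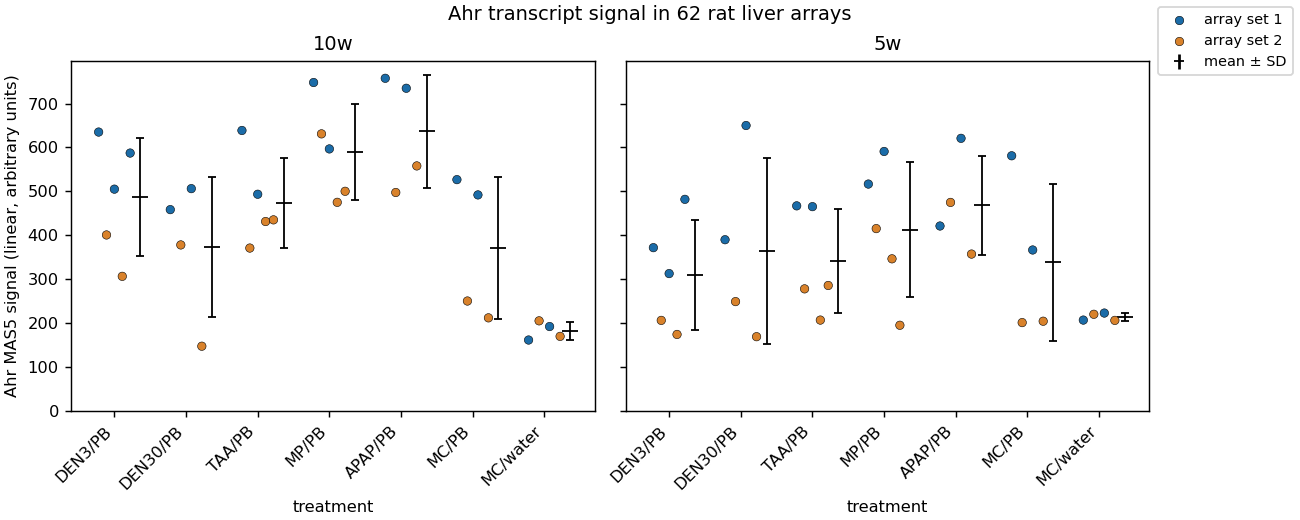
Ahr MAS5 signal (linear, arbitrary units) of each liver by treatment, at 10w in the left panel and 5w in the right. Points are arrays, coloured by array set, and bars are the mean ± SD. At 10w all phenobarbital-treated livers but 1 lie above the 4 MC/water livers, whose signals run from 161.5 to 205.2.

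The initiated and promoted livers exceeded MC/water by 1.31 ± 0.22 (SE) on the log2(signal + 25) scale at 10w, with an adjusted p of 0.000144 in limma, against a background of 8.89% of 10538 genes called in this comparison, 5.2% higher and 3.69% lower. Ahr also differed among the 7 treatments as a whole at 10w (limma F = 8.48, adjusted p = 0.00296), where 2.9% of genes did. In comparisons added after the data were seen, which all share the 4 MC/water livers, the fold over MC/water was 2.41 for DEN3/PB, 1.77 for DEN30/PB, 2.38 for TAA/PB, 2.94 for MP/PB and 3.16 for APAP/PB. The limma adjusted p was 0.00493, 0.107, 0.00384, 0.000483 and 0.000398 in that order, with 3.63%, 3.18%, 5.36%, 5.01% and 5.23% of genes called. DEN30/PB was thus the only initiated treatment that missed the threshold on its own, and whether it differed from the others was not tested.

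MC/PB was 0.84 ± 0.28 above MC/water on the log2 scale at 10w, 1.79-fold, which did not pass in limma (adjusted p = 0.117), where 2.26% of genes were called. It passed in limma when the array set was fitted as a term (adjusted p = 0.0167). The sets were read from these same values, Ahr among them, so that p is not independent support. Against MC/PB, the 10w livers of no initiated treatment passed for Ahr. The nearest were APAP/PB, at 0.82 ± 0.28 (limma adjusted p = 0.557), and MP/PB, at 0.72 ± 0.27 (limma adjusted p = 0.496). DEN3/PB was at 0.43, TAA/PB at 0.41 and DEN30/PB at -0.02.

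Bile duct markers were also measured in these livers. Of the 2 tested genes of a list of 5, Epcam, a surface protein of bile duct and progenitor cells, rose in the initiated livers at 10w by 1.33 ± 0.19 (2.51-fold, limma adjusted p = 1.42e-05) and in MC/PB by 1.26 ± 0.24 (2.39-fold, adjusted p = 0.00247). Krt19, a bile duct keratin, did not pass, at -0.07 and -0.27. The summed signal of the 4 measured markers at 10w was 1468 to 1933 in DEN3/PB, 1073 to 2909 in DEN30/PB, 1270 to 2287 in TAA/PB, 1356 to 2052 in MP/PB, 1778 to 2234 in APAP/PB and 1326 to 2112 in MC/PB, against 638.5 to 1038 in MC/water. Its highest median, 2123, was in APAP/PB and its highest single value, 2909, in DEN30/PB. No phenobarbital-treated group overlapped MC/water, and how often other sums of genes separate in this way was not computed. Epcam made up most of this sum, and its part in the Ahr difference was not tested.

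At 5w the Ahr levels of treated and untreated livers overlapped. The 23 initiated livers ran from 169.1 to 649.9 with a median of 371.8, and MC/PB gave 581.0, 201.2, 366.5 and 204.3, against 206.9, 220.1, 222.9 and 206.2 in MC/water. APAP/PB, at 421.1, 474.8, 620.7 and 357.2, was the 1 treatment with every liver above MC/water, which held for 4.32% of genes. MP/PB gave 516.6, 415.2, 590.8, 346.4 and 195.1, and in it, as in each other phenobarbital treatment except APAP/PB, at least 1 liver lay below the lowest MC/water liver or among its values. The initiated livers averaged 0.66 ± 0.27 above MC/water on the log2 scale (1.58-fold, limma adjusted p = 0.19, with 4.43% of genes called). This passed in limma with the array set as a term (adjusted p = 0.017), which is not independent support, since the sets were read from these same values. MC/PB was 0.48 ± 0.35 above MC/water (limma adjusted p = 0.702, with 1.25% of genes called).

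The spread of Ahr followed the array sets wherever phenobarbital was given. At 10w the phenobarbital-treated livers of set 1 ran from 458.4 to 757.4 with a median of 587.2, against 161.5 and 192.2 in the MC/water livers of that set. In set 2 they ran from 147.4 to 630.9 with a median of 416.0, against 205.2 and 169.8. Set 1 was the higher at 10w in every phenobarbital treatment without overlap except MP/PB. At 5w it was so in every one except APAP/PB. The MC/water livers of the sets overlapped at both weeks. Within set 1 the initiated livers at 5w also passed against MC/water, at 1.07 (limma adjusted p = 0.022), and within set 2 they did not, at 0.28 (limma adjusted p = 0.67).

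The initiated against untreated difference at 10w held within each set, at 1.63 (limma adjusted p = 2.64e-05) in set 1 and 0.99 (limma adjusted p = 0.0299) in set 2. With each set fitted alone, the MC/PB against MC/water difference at 10w was 1.41 (limma adjusted p = 0.00206) in set 1 and 0.27 (limma adjusted p = 0.803) in set 2. Each of these rests on 2 MC/PB and 2 MC/water livers. In a fit of both sets together, chosen after the data were seen, the limma adjusted p of these differences was 0.00705 in set 1 and 0.775 in set 2. There the difference between the sets was 1.14 ± 0.36 (unadjusted p = 0.00414, limma adjusted p = 1). At 5w the same kind of fit put MC/PB 1.02 above MC/water in set 1 (limma adjusted p = 0.147) and at -0.06 in set 2. The gap was 1.09 ± 0.41 (limma unadjusted p = 0.0145, adjusted p = 0.999). Since a component that splits the arrays takes its sign from many genes, Ahr among them, these set values describe the arrays and the origin of the sets was not tested.

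Ahr was higher at 10w than at 5w in the initiated livers, by 0.44 ± 0.14 on the log2 scale (1.36-fold, limma adjusted p = 0.0165), where 21.2% of 10903 genes were called. Followed by animal, it was higher at 10w in 24 of the 27 phenobarbital-treated animals. The mean change per animal was 0.65 ± 0.23 in DEN3/PB, 0.49 ± 0.33 in TAA/PB, 0.56 ± 0.45 in MP/PB and 0.43 ± 0.34 in APAP/PB (SD), and every animal of these 4 treatments was higher. DEN30/PB changed by 0.07 ± 0.40, with 2 of 4 animals higher, and MC/PB by 0.15 ± 0.24, with 3 of 4 higher. MC/water changed by -0.21 ± 0.09, with all 4 animals lower. On the tested probe set the limma adjusted p between weeks was 0.945 for MC/PB, where 1.31% of genes were called, and 0.993 for MC/water, where 0.0459% were. These fits between weeks did not pair the livers of an animal. With the animal as a block, 528 genes were called for MC/PB (143 without it) and 155 for MC/water (5 without it).

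**Figure D2:**
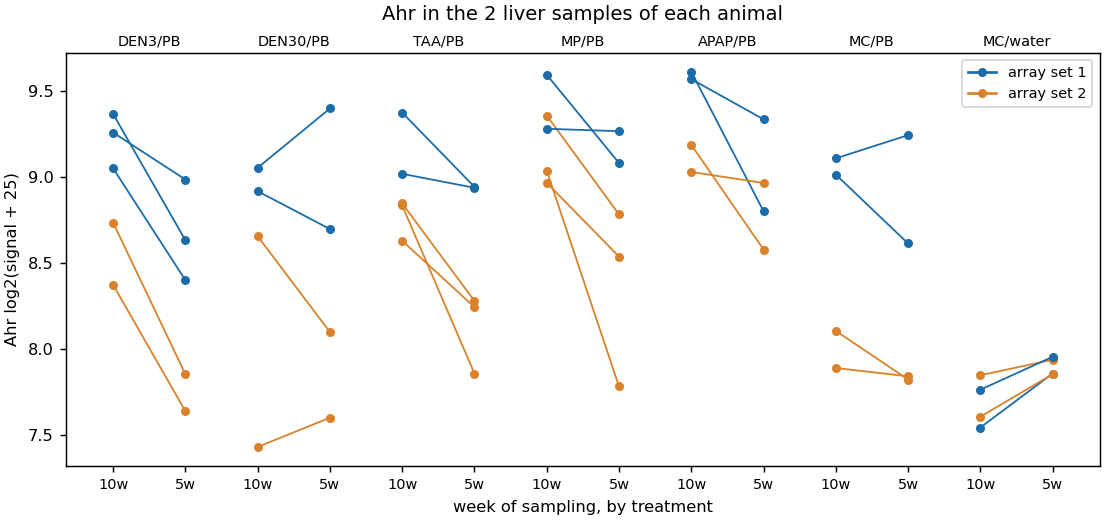
Ahr log2(signal + 25) in the 10w and 5w liver of each animal, joined by a line and grouped by treatment, with lines coloured by array set. All animals of DEN3/PB, TAA/PB, MP/PB and APAP/PB are higher at 10w, and all 4 MC/water animals are lower. Values are of the tested probe set.

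A direct test of whether the initiated against untreated difference was larger at 10w than at 5w, added after the data were seen, gave 0.65 ± 0.36 for Ahr (unadjusted p = 0.0746, limma adjusted p = 0.98), with 0.00917% of genes called. With the animal as a block the unadjusted p was 0.0197 and the limma adjusted p was 0.401. The larger difference at 10w was therefore not separated from the 5w one over all genes. The weeks also differ in time on phenobarbital, in age and in the hepatectomy between them, which cannot be told apart.

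Arnt, the partner with which AhR binds DNA, was close to the lower end of what was measured, with signals from 65.1 to 173.1 and 52 of 62 arrays at 100 or above. No comparison between treatments or weeks called it. It was lower at 10w than at 5w in 4 of 4 MC/PB animals, by a mean difference of -0.41 ± 0.13 (SD), and in 4 of 4 MC/water animals, at -0.20 ± 0.10. For MC/PB the limma fit, which did not pair the animals, gave an unadjusted p of 0.0175 and an adjusted p of 0.28. At 10w Arnt was 134.2, 159.6, 131.0 and 135.3 in APAP/PB and 139.1, 145.4, 105.1, 138.6 and 121.6 in DEN3/PB, against 109.1, 87.9, 87.0 and 105.0 in MC/PB. The APAP/PB livers lay above all MC/PB livers, as for 1.63% of genes, while 1 DEN3/PB liver fell among them. The differences from MC/PB were 0.43 ± 0.15 for APAP/PB (limma unadjusted p = 0.00633, adjusted p = 0.556) and 0.34 ± 0.14 for DEN3/PB (limma unadjusted p = 0.0216, adjusted p = 1). MC/water, at 121.6, 118.0, 99.7 and 155.9, overlapped the initiated livers, and the initiated against untreated difference did not pass.

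Tiparp, which ADP-ribosylates AhR and is itself induced by it, was lower at 5w in 3 initiated treatments than in MC/PB on the values, without passing the test. Its tested probe set gave 751.0, 879.4, 853.3, 881.0 and 691.7 in TAA/PB and 687.8, 787.3, 896.4, 727.2 and 743.1 in MP/PB. It gave 884.1, 598.9, 787.9 and 730.7 in APAP/PB, against 967.1, 929.4, 1130 and 995.5 in MC/PB. Every liver of these 3 treatments lay below every MC/PB liver, as for 0.105% of genes, an arrangement picked after the values were seen and resting on the same 4 MC/PB livers. They overlapped MC/water, at 814.4, 1068, 866.1 and 980.2. The differences from MC/PB were -0.30 ± 0.13 for TAA/PB, -0.38 ± 0.13 for MP/PB and -0.42 ± 0.13 for APAP/PB, with limma unadjusted p of 0.0239, 0.00583 and 0.00399 and adjusted p of 0.825, 0.362 and 0.396.

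The second Tiparp probe set differed from MC/PB in the same direction at 5w, by -0.65 in TAA/PB, -0.64 in MP/PB and -0.70 in APAP/PB, with limma adjusted p of 0.846, 0.497 and 0.574 in a fit over all probe sets. Its signals were 340.2, 341.0, 334.0, 330.7 and 266.5 in TAA/PB, all below the 4 MC/PB livers at 624.8, 378.0, 783.3 and 381.5. MP/PB, at 451.3, 365.1, 409.4, 214.6 and 238.2, and APAP/PB, at 351.0, 229.8, 410.1 and 273.3, overlapped MC/PB on this probe set. DEN3/PB and DEN30/PB overlapped MC/PB on the tested probe set. At 10w no initiator difference reached an unadjusted p of 0.05 for Tiparp in limma. Against MC/water at 10w, the initiated livers were at -0.08 on the tested probe set (limma adjusted p = 0.747). On the second they were at -0.51 (limma unadjusted p = 0.0243, adjusted p = 0.161). MC/PB was at -0.04 and -0.46 on these probe sets (limma adjusted p = 0.948 and 0.535), so the probe sets differed in size of change and neither passed. In MC/PB the tested probe set was lower at 10w than at 5w in 4 of 4 animals, with a difference of -0.38 ± 0.14 (limma unadjusted p = 0.0101, adjusted p = 0.227).

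**Figure D3:**
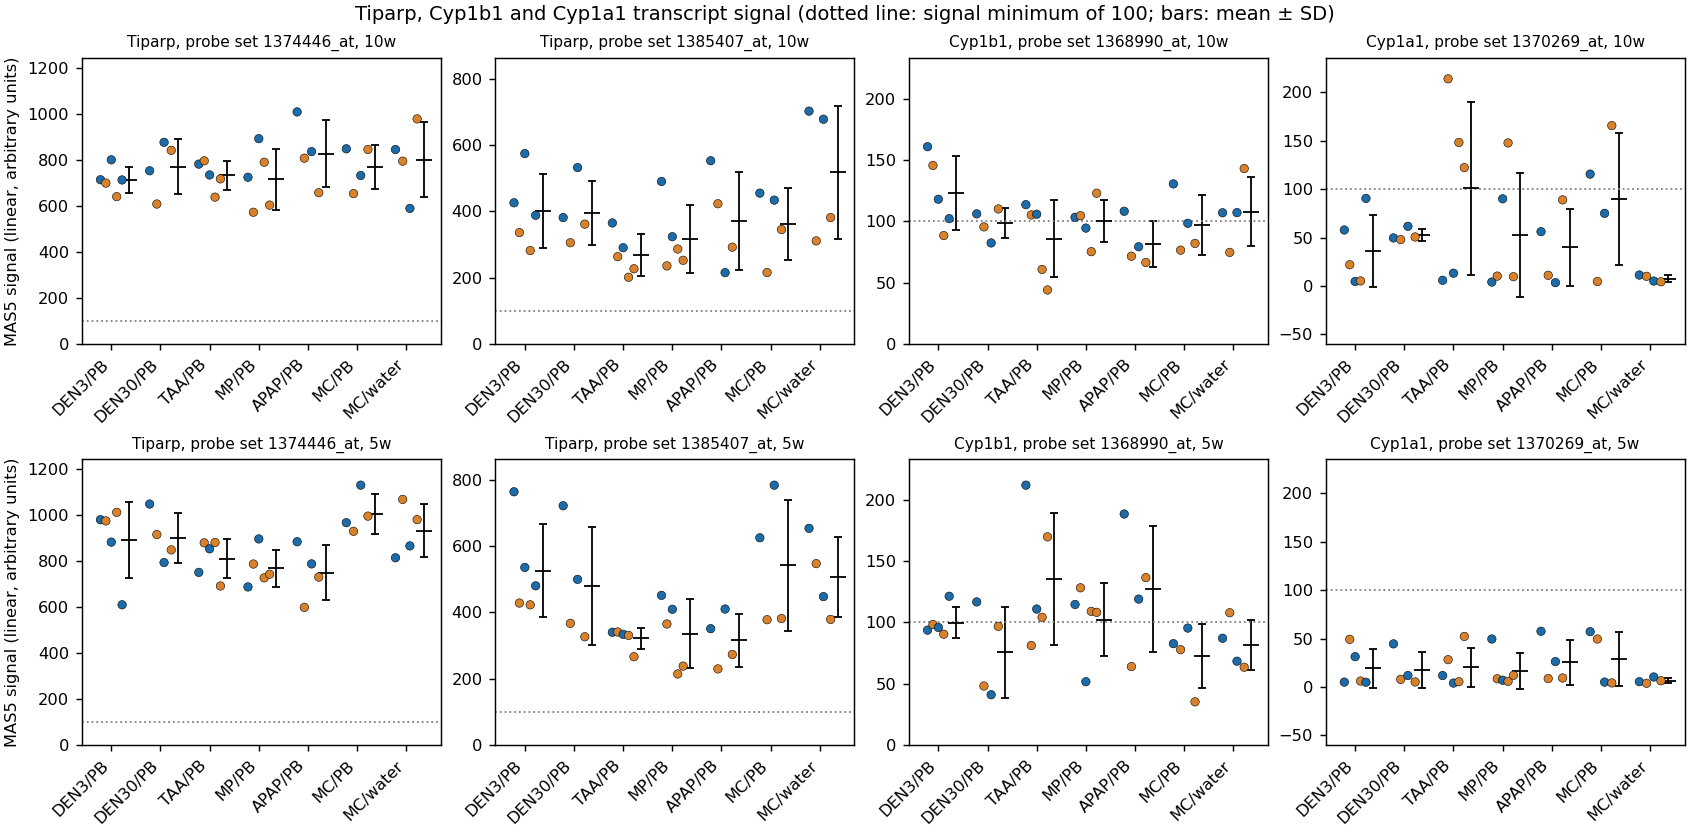
MAS5 signal (linear, arbitrary units) of both Tiparp probe sets, Cyp1b1 and Cyp1a1 by treatment, at 10w in the upper row and 5w in the lower. Points are arrays (blue for array set 1, orange for array set 2), bars are the mean ± SD and the dotted line is the minimum of 100. The first Tiparp panel at 5w has the MC/PB livers above every TAA/PB, MP/PB and APAP/PB liver, and Cyp1a1 is below 100 in every liver at 5w.

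Cyp1a2, the constitutive liver CYP1 enzyme that metabolises caffeine and aromatic amines, was lower in the initiated and promoted livers than in untreated livers at 10w. The 23 initiated livers ran from 2130 to 8505 with a median of 4704, and MC/PB gave 2936, 7484, 5145 and 3552, against 7250, 12925, 7150 and 8515 in MC/water. The difference of the initiated livers was -0.87 ± 0.23 on the log2 scale (0.549-fold, limma adjusted p = 0.0169), where 3.69% of genes were called lower. Every liver of DEN3/PB, TAA/PB, MP/PB and APAP/PB lay below all 4 MC/water livers, a grouping made after the values were seen. The margin was narrow, with the highest of these livers at 7090 in MP/PB and the lowest MC/water liver at 7150. In DEN30/PB 2 livers did not lie below all MC/water livers, nor did the MC/PB liver at 7484. The share of all genes separated by this grouping was not computed, so the separation is a description only.

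The 10w Cyp1a2 signals were 4704, 4368, 3253, 4441 and 5522 in DEN3/PB and 7811, 4055, 3111 and 8505 in DEN30/PB. They were 5963, 2130, 5256, 4671 and 3739 in TAA/PB and 6021, 3207, 3843 and 3998 in APAP/PB. MP/PB gave 6663, 6001, 5556, 7090 and 5078, and its lowest liver was the highest of the lowest livers of the phenobarbital treatments. In the comparisons added after the data were seen, TAA/PB was 0.474-fold (limma adjusted p = 0.0243) and APAP/PB 0.479-fold (limma adjusted p = 0.0362) the MC/water level. The limma adjusted p was 0.0522 for DEN3/PB, 0.247 for DEN30/PB and 0.352 for MP/PB.

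**Figure D4:**
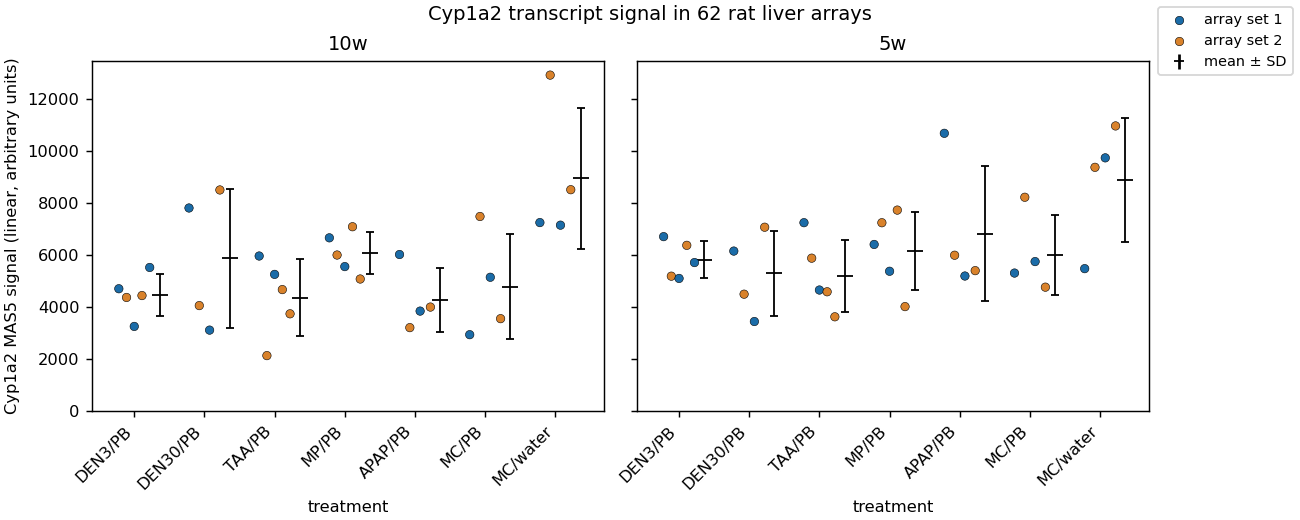
Cyp1a2 MAS5 signal (linear, arbitrary units) of each liver by treatment, at 10w in the left panel and 5w in the right, with arrays as points coloured by array set and bars for the mean ± SD. At 10w the MC/water livers run from 7150 to 12925, above every liver of DEN3/PB, TAA/PB, MP/PB and APAP/PB, a grouping made after the values were seen. DEN30/PB overlaps them.

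MC/PB alone was 0.517-fold MC/water for Cyp1a2 at 10w, a difference of -0.95 ± 0.30 that did not pass (limma adjusted p = 0.0939) and passed when the second MC/PB liver was left out (adjusted p = 0.0451). No initiated treatment differed from MC/PB at an unadjusted p of 0.05 at either week. At 5w the initiated livers ran from 3442 to 10685 with a median of 5711, and MC/PB gave 5307, 8224, 5749 and 4764, against 5477, 9376, 9741 and 10969 in MC/water. The first MC/water liver lay among the treated ones, and the initiated difference was -0.60 ± 0.19 (0.659-fold, limma adjusted p = 0.0703). It passed in limma when that liver was left out (adjusted p = 0.0224), as it did without the fourth DEN30/PB, the first TAA/PB or the first APAP/PB liver (adjusted p from 0.0292 to 0.0483).

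The 10w call for Cyp1a2 rested on few untreated livers. Without the second MC/water liver, at 12925, the difference was -0.68 and did not pass (limma adjusted p = 0.131), and without the fourth the adjusted p was 0.0527. Within array set 1 it was -0.49 (limma adjusted p = 0.532) and within set 2 -1.22 (limma adjusted p = 0.0465). Cyp1a2 is a transcript of perivenous hepatocytes. Of the 8 tested perivenous marker genes, Oat and Rgn fell, Tbx3 rose and the others did not pass in the initiated livers at 10w, with a list median of -0.115. The summed signal of that list lay between 39830 and 80970 in the initiated livers and 47030 and 54950 in MC/PB, against 66100 and 71640 in MC/water, with Lgr5 below 100 on every array. Cyp2e1 (24960 to 49520) and Rgn (10600 to 28210) made up most of this sum. The part of the listed markers in the Cyp1a2 difference was not tested. Between weeks, Cyp1a2 in the initiated livers differed by -0.25 ± 0.12 (limma adjusted p = 0.145), which passed with the animal as a block (adjusted p = 0.0397), and it was lower at 10w in 19 of the 27 phenobarbital-treated animals.

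Cyp1a1, the enzyme usually taken as the readout of AhR activation, was near background throughout. Only 6 of the 62 arrays reached 100, all at 10w. They were 213.9, 148.2 and 122.2 in TAA/PB, 147.7 in MP/PB, and 115.5 and 165.6 in MC/PB, whose other livers were at 75.0 and 4.62. MC/water ran from 4.35 to 11.3 at 10w and from 3.89 to 10.4 at 5w, and all 31 livers at 5w were below 100. Livers of 1 treatment thus ranged from a few units to above 100.

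At 10w the initiated livers exceeded MC/water for Cyp1a1 by 1.02 ± 0.50 on the log2 scale (limma adjusted p = 0.229) and MC/PB exceeded it by 1.54 ± 0.65 (limma adjusted p = 0.263), so neither passed. At 10w the gene passed the filter only through phenobarbital-treated livers, so the direction of both differences was in part fixed by the filter. No fold is given, since MC/water is known only to lie below 100 and many treated livers do too. Between weeks the initiated livers were 0.65 ± 0.23 higher at 10w (limma adjusted p = 0.0375). The gene passed the filter only through 10w arrays, so this difference was in part fixed by the filter and supports nothing further. The call in limma was lost with no offset (adjusted p = 0.114), within array set 2 (adjusted p = 0.074), and without any of 18 single livers of the 46 in turn (adjusted p from 0.0141 to 0.0728 over all 46), while set 1 alone left the gene below the filter.

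Cyp1b1, a CYP1 enzyme of mostly extrahepatic cells that oxidises oestradiol and polycyclic hydrocarbons, lay around the minimum, at 100 or above on 31 of 62 arrays. At 5w it was 211.8, 81.2, 110.9, 104.2 and 169.7 in TAA/PB and 188.3, 64.0, 119.0 and 136.5 in APAP/PB, against 82.7, 77.8, 95.4 and 35.3 in MC/PB. All MC/PB livers were below 100, and 1 TAA/PB liver and 1 APAP/PB liver fell among them. The differences from MC/PB were 0.70 ± 0.27 for TAA/PB (limma unadjusted p = 0.0159, adjusted p = 0.764) and 0.61 ± 0.29 for APAP/PB (limma unadjusted p = 0.0415, adjusted p = 0.656), so neither passed. With each MC/PB liver taken at 100 and the others as measured, the folds were 1.28 and 1.18. These are not lower bounds, since 1 TAA/PB liver and 1 APAP/PB liver were also below 100. The summed signal of 9 stellate cell and fibroblast markers at 5w was 11900 to 15080 in TAA/PB, 9568 to 14040 in APAP/PB and 8353 to 15460 in MC/PB, and its part in these values was not tested.

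Read over all members, no initiated treatment differed from MC/PB in a member called by limma, among 6 tested at 10w and 5 at 5w. At 10w, against MC/PB, 0.019% of all genes were called for DEN3/PB, 0.0285% for DEN30/PB, 0.00949% for TAA/PB, 0.0854% for MP/PB and 0.0664% for APAP/PB. At an unadjusted p of 0.05 in limma, DEN3/PB had Arnt, MP/PB had Ahr, APAP/PB had Ahr and Arnt, and DEN30/PB and TAA/PB had 0 members. At 5w, 0.0381%, 0.114%, 0.0191%, 0.0572% and 0% of genes were called in the same order of treatments. There MP/PB had Tiparp at an unadjusted p of 0.05, TAA/PB and APAP/PB each had Tiparp and Cyp1b1, and DEN3/PB and DEN30/PB had 0 members.

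The initiated against untreated comparison called 2 of 6 members at 10w, against 8.89% of genes, Ahr higher and Cyp1a2 lower, with a median log2 difference of -0.044 over the members and 0.0026 over all genes. At 5w it called 0 of 5 members in limma, against 4.43% of genes, with Ahr and Cyp1a2 at an unadjusted p of 0.05 and medians of -0.17 and 0.0017. The test of any difference among the 7 treatments at 5w called 0 of 5 in limma, with 2.22% of genes called and Tiparp at an unadjusted p of 0.05. MC/PB against MC/water called 0 of 6 members at 10w, against 2.26% of genes, with Ahr, Cyp1a1 and Cyp1a2 at an unadjusted p of 0.05 in limma. Cyp1a1 passed the 10w filter only through phenobarbital-treated livers, so its direction there was in part fixed by the filter. MC/PB against MC/water called 0 of 5 at 5w in limma, against 1.25% of genes, with Cyp1a2 at an unadjusted p of 0.05. The phenobarbital difference at 10w minus that at 5w called 0 members and 0% of genes in limma, with 0 members at an unadjusted p of 0.05.

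**Figure D5:**
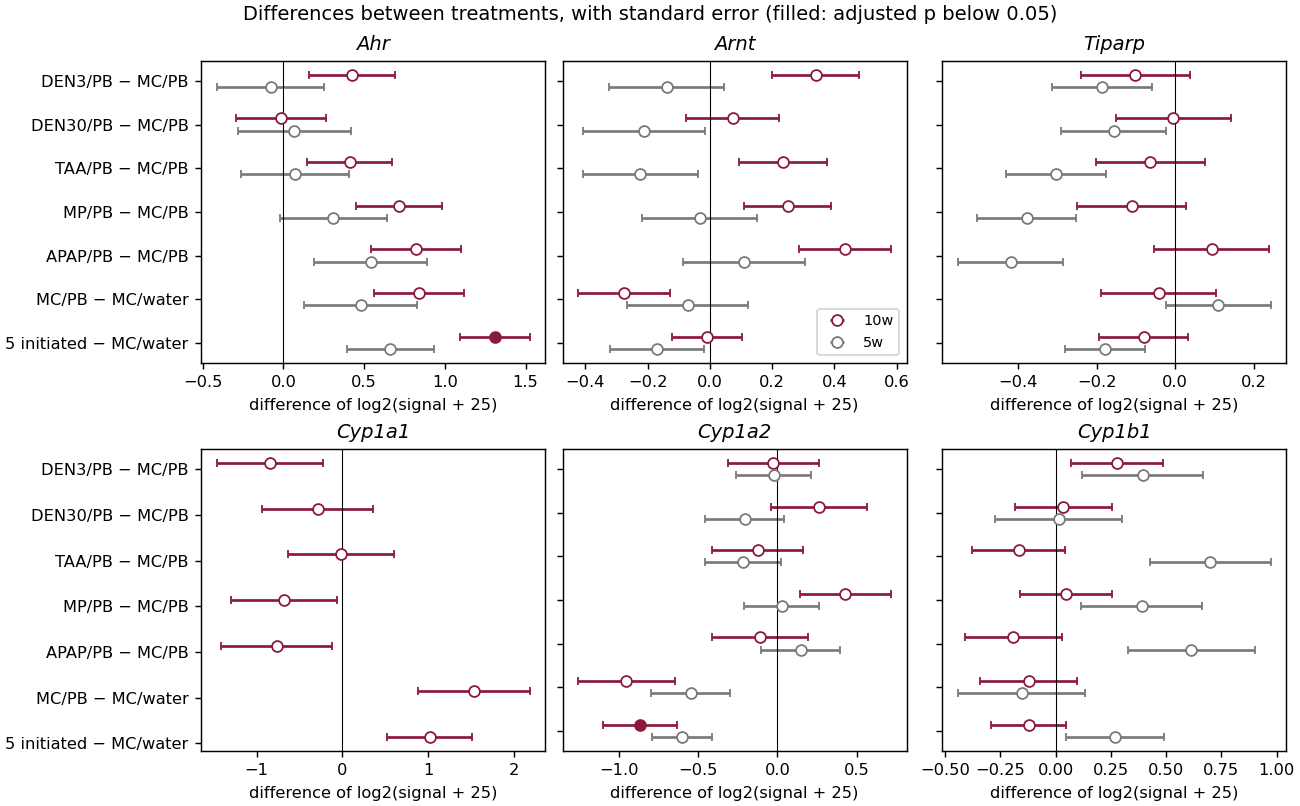
Difference of log2(signal + 25) with its standard error for each of the 6 genes: each initiated treatment minus MC/PB, MC/PB minus MC/water, and the mean of the 5 initiated treatments minus MC/water, at 10w (dark red) and 5w (grey). Filled points have an adjusted p below 0.05, which are Ahr (1.31) and Cyp1a2 (-0.87) in the initiated against untreated comparison at 10w. Cyp1a1 was tested at 10w only, having passed the filter through phenobarbital-treated livers alone.

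A list of 30 other genes tied to AhR signalling, its cofactors, further targets and enzymes that make or clear tryptophan-derived ligands had 19 tested members. In MC/PB against MC/water at 10w, 5 of them rose and none fell, against 2.26% of all genes called: Nqo1, a quinone reductase, by 1.61 (3.05-fold, limma adjusted p = 0.000332), Por, which passes electrons to the P450s, by 1.39 (adjusted p = 0.00201), Alas1, the first enzyme of haem synthesis, by 1.09 (adjusted p = 0.00587), and Cyb5a by 0.34 (adjusted p = 0.0122). At 5w only Nqo1 (1.31 ± 0.20, limma adjusted p = 0.000164) and Por (0.97, adjusted p = 0.0458) rose, and Por missed the threshold in 6 of the 8 fits that left out 1 MC/PB or MC/water liver. CAR, too, is known to raise Por and Alas1, and the cause of these rises, that of Nqo1 included, was not tested.

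In the initiated livers against MC/water, 7 of the 19 rose and none fell at 10w, where 5.2% of all genes rose and 3.69% fell. At 5w 4 rose and 1 fell, where 4.43% of all genes were called. The list's median difference at 10w was -0.086. The list was chosen with earlier results of these data known, so its counts are descriptions and not independent support. The 10w rises with the smallest p were Nqo1 (1.49, limma adjusted p = 9.64e-06), Cyb5a (0.43, adjusted p = 9.66e-06), Por (1.46, adjusted p = 9.88e-06) and the chaperone Ptges3 (0.27, adjusted p = 0.0013), which sits with HSP90 in the inactive AhR complex. The 5w fall was Kmo, a kynurenine-clearing enzyme (-0.42, limma adjusted p = 0.0064). Ahrr, the AhR repressor, and Aldh3a1, another classical target, were below 100 on every array, as were Ido1 and Ncoa2. Ahr and Nqo1 were higher in the same comparison at 10w while Cyp1a2 was lower and Cyp1a1 did not pass.

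Ordered by mean log2 level over the 14 groups, Ahr was highest in 10w APAP/PB (9.35), then 10w MP/PB (9.25), 10w DEN3/PB (8.96) and 10w TAA/PB (8.94), and lowest in 5w MC/water (7.90) and 10w MC/water (7.69). The groups between them, from 5w APAP/PB at 8.92 to 5w DEN3/PB at 8.30, followed each other in small steps. Only 1 of the 13 steps between neighbours was larger than the pooled SD of its groups, that between the 2 MC/water groups. For Cyp1a2 the order ran from 10w MC/water to 10w TAA/PB over 1.08 log2 units, and 0 of 13 steps exceeded the pooled SD. The span was 0.49 for Tiparp, 0.52 for Arnt, 0.70 for Cyp1b1 and 1.58 for Cyp1a1, also with 0 of 13 steps beyond it.

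Among 4915 genes compared, those whose 14 group means were most like those of Ahr were Nr1d1 (r = 0.926), Stard3nl (r = 0.925) and Dhdds (r = 0.919). Over the 62 arrays' deviations from their group means Nr1d1 had r = -0.064 with Ahr and Stard3nl 0.44, so likeness of group means did not carry over to single livers for Nr1d1. By those deviations, Cpd (r = 0.769), A1cf (0.761) and Stat3 (0.758) were nearest to Ahr, falling to 0.477, 0.098 and 0.413 within the array sets. Cyp1a2 was most like Ang (r = 0.919), Gadl1 (0.91) and Icoslg (0.895) in its group means. Between members, the group means of Ahr and Cyp1a2 had r = -0.685 and their deviations -0.069. These are descriptions over groups that share animals and arrays.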

How the data were processed

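Total RNA from 62 livers was hybridised to Affymetrix rat arrays after extraction with an RNeasy Mini Kit, per the labels' protocols. The authors deposited 1 signal intensity per probe set and array, on a linear scale, computed by MAS5 5.0 according to the submitters' processing notes. Neither the chip design nor the value it scaled to is known here. The deposited intensities were not renormalised. The 6 members and all gene lists were chosen with earlier results of these data known.

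Each gene was represented by its probe set with the highest mean signal. Genes with a signal of 100 or above on at least 4 arrays of a fit were tested on log2(signal + 25) in limma 3.58.1 (R 4.3.3) with a mean-variance trend, and p-values were adjusted by the Benjamini-Hochberg method over all tested genes, with a call at 0.05. A fold change is on this scale and understates the change of low genes. Treatments were compared within each week on 31 arrays, and weeks on 62 arrays. The main fits between weeks did not pair the livers of an animal. The initiated livers are the mean of the 5 initiated treatments. The fit was tested on simulated data. The number of arrays limits the precision.

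Genes outside the members were named if called in their list, at most the 4 with the smallest p per comparison; the genes most like a member were the nearest 3. Array sets come from the sign of the first principal component of the residuals. Samples of 1 animal at both weeks were paired by the design, and the 31 pairs of deviations from group means correlated at 0.211 to 0.394. Alternatives were no offset, no filter, quantile normalisation, all probe sets, no trend, a replicate or animal block, the array set as a term, each set alone, only the compared groups, and each liver left out in turn.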

Additional observations from a re-analysis of the deposited data

Results flagged for a closer look

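In 4 initiated treatments every animal had a higher Ahr level at 10w than at 5w, by a mean log2 difference of 0.65 in DEN3/PB, 0.49 in TAA/PB, 0.56 in MP/PB and 0.43 in APAP/PB, while all 4 MC/water animals had a lower one, by a mean difference of -0.21. On the second Ahr probe set, mostly below 100, the mean change was 0.48 in MC/water, with 3 of 4 animals higher. There it was -0.13 in DEN3/PB, -0.11 in APAP/PB, 0.82 in TAA/PB and 0.58 in MP/PB. The share of genes with every animal moving alike was not computed. On the tested probe set, the initiated against untreated difference at 10w minus that at 5w was 0.65 ± 0.36 (limma unadjusted p = 0.0746, adjusted p = 0.98, and adjusted p = 0.401 with the animal as a block).

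A single liver stood far from the rest of its group in 6 of the 84 combinations of gene and group tested, and chance flags about 1 in 20. Arnt was lowest in the third 5w MP/PB liver (108.7) and highest in the second 10w APAP/PB liver (159.6). Cyp1b1 was highest in the fifth 5w DEN3/PB liver (121.3) and lowest in the third 5w MP/PB liver (51.7). Tiparp was lowest in the fifth 5w DEN3/PB liver (610.2), and without that liver the initiated Tiparp difference between weeks passed (-0.15, limma adjusted p = 0.0454). Cyp1a1 was highest in the first 5w MP/PB liver (49.6), below the minimum of 100.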

How the results depend on the processing

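Of the 35 member results examined, 985 values under other settings gave 939 with the same direction and side of the threshold, 25 that lost a call, 13 that gained one and 8 of the opposite sign, and 1764 further values of the other members gave 0 calls, of which 103 changed sign. The 10w Ahr difference of initiated from untreated livers kept its call under every setting run. The initiated against untreated comparison at 5w called 1 member, not 0, with the replicate block (Ahr, adjusted p = 0.0494), with the array set as a term and within set 1. MC/PB against MC/water at 10w likewise called 1 with the replicate block (Ahr, adjusted p = 0.0201), the set term and set 1. With 1 liver left out, each of these gave 0 to 1. Initiated against untreated at 10w called 1 within set 1 and 1 to 2 with 1 liver left out. The test among the 7 treatments at 10w called 0 within set 2 in limma, where fewer arrays were fitted. Initiated livers between weeks had 1 call with no offset, 0 within set 1, 1 within set 2 and 1 to 2 with 1 liver left out. The sets were read from these same values, so calls that use them are not independent support. The cause of these changes in calls was not tested. The sign turned for Ahr in MC/PB against MC/water at 5w within set 2 (-0.063), and for Cyp1a2 between weeks in MC/water within set 1 (-0.021) and with 1 liver left out (-0.203 to 0.13). It also turned for Ahr between weeks in MC/PB with 1 liver left out (-0.044 to 0.437).

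Within a week the replicate numbers had all pairs above 0.1 in 3 of 12 comparisons (30 of 48 pairs), and the replicate block changed no member call in those 3. Counts over all genes depended on the setting. The overlap of the genes called was not computed. Fits of sets 1 and 2 alone called 18 and 20 genes for phenobarbital at 5w (131 on all arrays), 51 and 36 at 10w (238), 147 and 135 for initiated livers at 5w (465), and 134 and 292 at 10w (937). Phenobarbital at 10w called 394 genes with the replicate block and 370 with the set term, and at 5w 79 with only its own groups fitted. The test among treatments called 12 and 46 genes at 5w (233 on all arrays) and 23 and 49 at 10w (306) within sets 1 and 2, 386 at 5w with the set term, and 467 and 490 at 10w with the block and the set term. Between weeks, sets 1 and 2 gave 709 and 1334 genes for initiated livers (2316 on all arrays) and 0 and 9 for MC/PB (143) in limma. The animal block gave 528 for MC/PB, 155 against 5 for MC/water (0 to 14 elsewhere) and 7 against 0 for the phenobarbital difference between weeks (0 to 1 elsewhere). With 1 liver left out, phenobarbital called 65 to 130 genes at 5w and 141 to 179 at 10w, initiated against untreated 273 to 508 and 565 to 1031, any difference among treatments 163 to 248 and 170 to 375, and MC/PB between weeks 35 to 138. Single initiators called 0 to 14 genes under every setting. Cyp1a1 and Cyp1b1 lie near the minimum of 100, which limits how well their differences are known.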
